A study of Mus musculus with 8 samples.

Results

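The distal colon of mice with an altered NAIL locus, the genotype the labels call NAIL-ΔNFκB, was compared with that of wild-type (WT) mice after dextran sulfate sodium (DSS). The comparison takes 4 of the 8 RNA-seq libraries of the series by their labels, 2 from ΔNFκB mice given DSS and 2 from WT mice given DSS, and all 17522 genes with enough counts. Each library is the distal colon of 1 C57BL/6 mouse aged 8 to 10 weeks, and all 4 mice had 3% DSS in the drinking water for 4 days and normal water for 4 more. The labels do not say which bases of the locus differ, how the line was made or whether the WT mice were littermates. The other 4 libraries, 2 untreated WT and 2 untreated ΔNFκB mice of the same strain and age, add to the common estimate of the spread and give the untreated levels. WT and ΔNFκB below mean the mice given DSS unless untreated is said. After DSS, ΔNFκB mice had lower levels of most neutrophil, matrix, vessel and nerve genes tested, and higher levels of most goblet cell, cell cycle, respiratory chain and endoplasmic reticulum chaperone genes and of 17 of 38 interferon-induced genes. Over all genes tested, 8.32% were called higher and 11.7% lower. When ΔNFκB DSS replicate 2 was left out, the median log2 fold change of the interferon list went from 0.96 to 0.49. The goblet cell median went from 1.28 to 1.37 and the cell cycle median from 0.56 to 0.50. Those of the nuclear respiratory chain and the chaperones went from 0.47 to 0.35 and from 0.76 to 0.65.

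DSS is a sulfated polysaccharide that injures the colon epithelium when mice drink it, so that luminal bacteria meet the mucosa, neutrophils and monocytes enter, and the epithelium is rebuilt during the days after withdrawal. NF-κB is a family of transcription factors (Rela, Relb, Rel, Nfkb1, Nfkb2) that inhibitor proteins such as the product of Nfkbia hold in the cytoplasm until Toll-like, interleukin 1 or tumour necrosis factor receptors release them, and that then switch on cytokine, chemokine and adhesion genes. NAIL is a long noncoding RNA that the series title links to activation of the kinase p38 and to chromatin remodelling by NF-κB; Wip1, the product of Ppm1d, is a phosphatase that acts on p38.

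The DSS libraries held 9229637, 9553474, 9667564 and 10522851 counts, against a range of 9229637 to 16935724 over all 8. Levels are given in CPM, counts scaled to a common library size, and 3 counts in 1 DSS library were 0.274 to 0.309 CPM. All 4 DSS mice were female by their transcripts: Xist stood at 1311 to 1733 CPM and 4 Y-linked genes summed to at most 0.209 CPM. The genotypes lay apart on the leading axis of a principal component analysis of the 4 DSS libraries, which carried 73.6% of their variance. Pearson r of log2 CPM across genes, which are not independent replicates, was 0.978 between the WT libraries, 0.971 between the ΔNFκB libraries and 0.919 to 0.945 across genotypes. The labelled tissue was checked against its markers: the epithelial gene Epcam stood at 715 and 673 CPM in WT and 875 and 969.7 CPM in ΔNFκB mice, and the absorptive colonocyte list summed to 10750 and 11030 CPM in WT and 15370 and 15760 CPM in ΔNFκB mice. Ribosomal RNA-like transcripts took 6.70% and 3.46% of WT counts and 6.07% and 5.09% of ΔNFκB counts, and mitochondrial transcripts 7.27% and 9.66% against 9.32% and 14.0%. Nothing in the labels says that the mice of a group came from separate litters or cages, so p-values measure the spread between these mice.

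Of 17522 genes tested with edgeR's quasi-likelihood test and Benjamini-Hochberg adjustment (threshold 0.05), 3499 differed between the genotypes, which is 20.0% of them. ΔNFκB mice had 1457 genes higher (8.32%) and 2042 lower (11.7%), and falls were larger than rises. The groups did not overlap for 68.1% of all genes tested, with ΔNFκB mice higher for 35.5% and lower for 32.6%. Among genes past the threshold, 305 were at least 2-fold higher (1.74%) and 1718 at least 2-fold lower (9.80%), and at 4-fold the numbers were 67 (0.382%) and 774 (4.42%). The median log2 fold change of all genes tested was 0.03. The number of genes called was 1770 without WT DSS replicate 1, 890 without WT DSS replicate 2, 1568 without ΔNFκB DSS replicate 1 and 484 without ΔNFκB DSS replicate 2, and 434 of the 3499 calls (100 higher and 334 lower) were kept in all 4 of those fits. For 1 gene alone, the smallest p of an exact two-sided permutation test of these 4 mice is 0.333, so each call rests on the spread pooled over genes and groups. In a fit with 1 library left out, the lone mouse of its group is assumed to vary like the others.

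**Figure D1:**
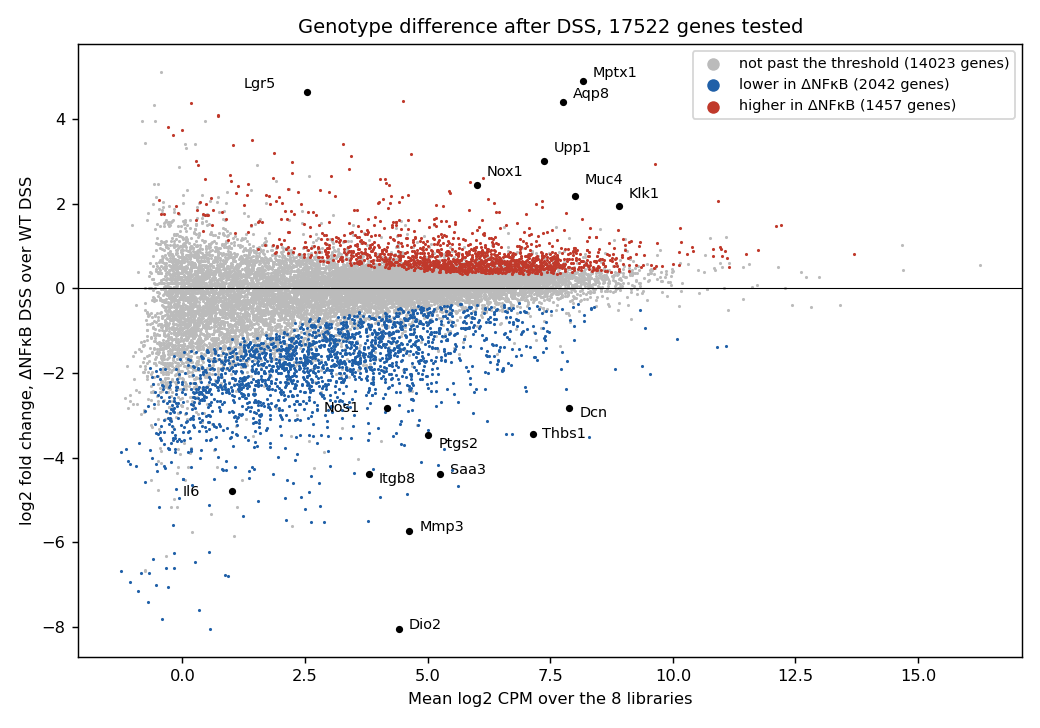
Log2 fold change of ΔNFκB over WT after DSS (y axis) against mean log2 CPM over the 8 libraries (x axis), 1 point per gene; red points are the 1457 genes higher and blue points the 2042 genes lower in ΔNFκB mice, and black points are named. The blue cloud reaches further from 0 than the red one: 1718 genes were at least 2-fold lower and 305 at least 2-fold higher.

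Lists of genes for cell types and pathways are described by how many members passed the threshold in each direction and by the median log2 fold change of the members tested, to be read beside 8.32% higher, 11.7% lower and a median of 0.03 over all genes. The lists were chosen with earlier results of these data known and received no test of their own. Where 5 or fewer members passed in a direction most of them are named (of the 304 list genes called, 62 were called in all 4 fits that left out 1 DSS library), and any outside the naming rule were thereby chosen after their values were seen. RNA came from pieces of tissue, so fewer cells of a type and less RNA per cell cannot be told apart.

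**Figure D2:**
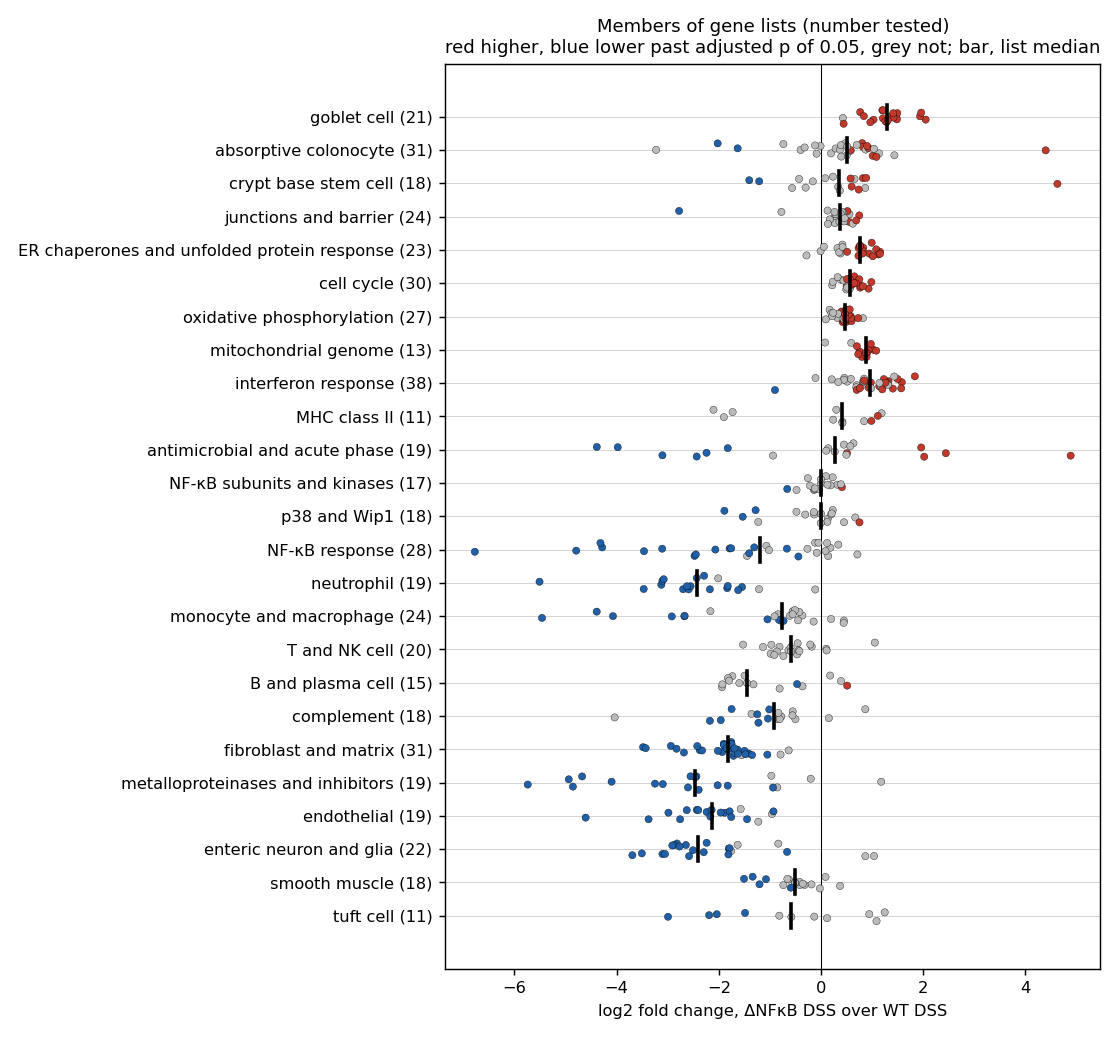
Log2 fold change of ΔNFκB over WT after DSS for every tested member of 25 gene lists (rows, with the number tested); red points passed the threshold upward, blue points downward, grey points did not pass, and the bar is the list median. Goblet cell genes lie to the right (median 1.28), and neutrophil, matrix, endothelial and nerve genes to the left (medians -2.43, -1.82, -2.14 and -2.40).

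The gene of the targeted locus did not pass the threshold. Gm16685 (ENSMUSG00000097804, chromosome 3, 7612705 to 7690001), which the labels do not name and which general knowledge gives as the mouse NAIL gene, stood at 5.5 and 11.5 CPM in WT and 5.63 and 8.86 CPM in ΔNFκB mice. The groups overlapped (log2 fold change -0.24 ± 0.52, adjusted p 0.782), and the sign turned without WT DSS replicate 2 (0.40) or ΔNFκB DSS replicate 1 (0.07). Reads summed over the gene cannot tell whether a short stretch is missing, so these values are no check of the genotype labels. Il7, the cytokine gene beside it, stood at 8.79 and 7.23 CPM in WT and 8.2 and 5.67 CPM in ΔNFκB mice (log2 fold change -0.21 ± 0.39, adjusted p 0.736). That difference was not past the threshold, and it was 0.01 without ΔNFκB DSS replicate 2.

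Genes of the p38 and NF-κB machinery went in both directions. Of 18 p38 and Wip1 genes tested, 3 were lower (Dusp1, Rps6ka5 and Mapk12), 1 higher (Map2k3) and 14 did not pass (median 0.00; from -0.067 without ΔNFκB DSS replicate 2 to 0.12 without ΔNFκB DSS replicate 1). Ppm1d, the gene of Wip1, stood at 10.3 and 10.3 CPM in WT and 9.43 and 9.28 CPM in ΔNFκB mice (log2 fold change -0.14 ± 0.17, adjusted p 0.602). Mapk14, which encodes p38α, stood at 88.7 and 80.9 CPM in WT and 98.9 and 95.6 CPM in ΔNFκB mice (log2 fold change 0.20 ± 0.12, adjusted p 0.287). Neither passed the threshold. Dusp1, a phosphatase that shuts off p38 and Jnk kinases, fell from 89.6 and 63 CPM in WT to 15.3 and 25.9 CPM in ΔNFκB mice (log2 fold change -1.89 ± 0.36, adjusted p 0.0113). Map2k3, a kinase upstream of p38, was higher at 75.6 and 66.5 CPM in WT and 117 and 122 CPM in ΔNFκB mice (log2 fold change 0.75 ± 0.14, adjusted p 0.0114). Rps6ka5, the kinase Msk1 downstream of p38, and Mapk12, which encodes p38γ, fell with log2 fold changes of -1.28 ± 0.28 and -1.53 ± 0.38 (adjusted p 0.0184 and 0.0274). For each of these 4 the groups were apart. Of 17 NF-κB subunits and upstream kinases, 1 was higher (Irak1), 1 lower (Relb) and 15 did not pass (median 0.00; from -0.052 without ΔNFκB DSS replicate 2 to 0.04 without WT DSS replicate 1). Relb, the subunit of the noncanonical arm, fell from 38.6 and 35.8 CPM to 25.4 and 21.6 CPM (log2 fold change -0.66 ± 0.13, adjusted p 0.0134). Irak1, a kinase below the interleukin 1 receptor, was higher (log2 fold change 0.41 ± 0.10, adjusted p 0.0252). Rela, the p65 subunit, stood at 47.8 and 43.8 CPM in WT and 45.9 and 43.3 CPM in ΔNFκB mice (log2 fold change -0.04 ± 0.12, adjusted p 0.847), with overlapping groups. Dusp1 missed the threshold without WT DSS replicate 1 (adjusted p 0.0565) or ΔNFκB DSS replicate 1 (0.0685). Map2k3 missed the threshold without WT DSS replicate 2 (adjusted p 0.0927) or ΔNFκB DSS replicate 2 (0.0971). Rps6ka5 missed the threshold without WT DSS replicate 1 (adjusted p 0.0792), WT DSS replicate 2 (0.0749) or ΔNFκB DSS replicate 2 (0.132). Mapk12 missed the threshold without WT DSS replicate 1 (adjusted p 0.0628), WT DSS replicate 2 (0.165), ΔNFκB DSS replicate 1 (0.126) or ΔNFκB DSS replicate 2 (0.138) and with DESeq2 (0.177). Relb missed the threshold without WT DSS replicate 1 (adjusted p 0.0691), WT DSS replicate 2 (0.0591) or ΔNFκB DSS replicate 2 (0.107). Irak1 missed the threshold without WT DSS replicate 1 (adjusted p 0.112), WT DSS replicate 2 (0.109), ΔNFκB untreated replicate 1 (0.0518), ΔNFκB untreated replicate 2 (0.0516), ΔNFκB DSS replicate 1 (0.107) or ΔNFκB DSS replicate 2 (0.149) and with upper quartile factors (0.0524), with DESeq2 (0.0948) and with no count filter (0.0739). Without WT DSS replicate 1 the value of Rela was 0.04.

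Of 28 NF-κB response genes tested, 15 were lower in ΔNFκB mice and 13 did not pass (median -1.19). Over the fits with 1 library left out, the number lower was 9 and 9 without WT DSS replicates 1 and 2 and 5 and 6 without ΔNFκB DSS replicates 1 and 2. Cxcl2 (ENSMUSG00000058427, chromosome 5, 90903871 to 90905938), which attracts neutrophils through Cxcr2, stood at 53.9 and 49.7 CPM in WT and 6.76 and 11.8 CPM in ΔNFκB mice (log2 fold change -2.48 ± 0.31, adjusted p 0.00318). Ptgs2, the inducible cyclooxygenase that makes prostaglandin precursors, stood at 61.9 and 139 CPM in WT and 6.86 and 11.3 CPM in ΔNFκB mice (log2 fold change -3.47 ± 0.41, adjusted p 0.00276). Both were lower in both ΔNFκB mice than in either WT mouse. Il6, a cytokine that acts through Stat3, stood at 2.41 and 12.4 CPM in WT and 0.102 and 0.412 CPM in ΔNFκB mice (log2 fold change -4.79 ± 1.01, adjusted p 0.0193). Il1b, the secreted interleukin 1β, stood at 151 and 48.7 CPM in WT and 16.4 and 31.1 CPM in ΔNFκB mice (log2 fold change -2.07 ± 0.55, adjusted p 0.0329). The groups of each gene were apart, but the WT mice were unlike each other: WT DSS replicate 2 had the higher Il6 and WT DSS replicate 1 the higher Il1b. Tnfaip2 fell from 59.9 and 49.3 CPM to 19.9 and 21.3 CPM, and Irak3, an inhibitor of interleukin 1 signalling, from 17.7 and 24.3 CPM to 6.04 and 6.08 CPM (-1.40 ± 0.16, adjusted p 0.00265 and -1.79 ± 0.22, adjusted p 0.00308). Csf3, the neutrophil growth factor G-CSF, had 146 counts in WT and 1 count in ΔNFκB mice and was 133-fold (95% counting interval 23.6 to 5306) lower (adjusted p 0.00523). Cxcl2, Ptgs2, Tnfaip2, Irak3 and Csf3 passed the threshold in each fit that left out 1 DSS library. Il6 missed the threshold without WT DSS replicate 2 (adjusted p 0.106), ΔNFκB DSS replicate 1 (0.0995) or ΔNFκB DSS replicate 2 (0.109) and with limma-voom (0.0839). Il1b missed the threshold without WT DSS replicate 1 (adjusted p 0.216), ΔNFκB DSS replicate 1 (0.16) or ΔNFκB DSS replicate 2 (0.105) and with DESeq2 (0.0743).

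Other targets of the same factor did not pass. Tnf, the tumour necrosis factor gene, stood at 11.5 and 8.79 CPM in WT and 8.61 and 14.4 CPM in ΔNFκB mice (log2 fold change 0.18 ± 0.48, adjusted p 0.814). Nfkbia, the inhibitor that NF-κB itself induces, stood at 111 and 125 CPM in WT and 102 and 127 CPM in ΔNFκB mice (log2 fold change -0.05 ± 0.22, adjusted p 0.894). Nos2, the inducible nitric oxide synthase, stood at 595 and 447 CPM in WT and 386 and 764 CPM in ΔNFκB mice (log2 fold change 0.14 ± 0.52, adjusted p 0.872). In all 3 the groups overlapped, and Tnf changed sign without ΔNFκB DSS replicate 2 (-0.26). Summed over the list the level was 2087 and 1984 CPM in WT and 1431 and 2014 CPM in ΔNFκB mice, which overlapped. Nfkbia, Nos2 and Csf3 are outside the rule for named genes and were chosen after their values were seen.

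**Figure D3:**
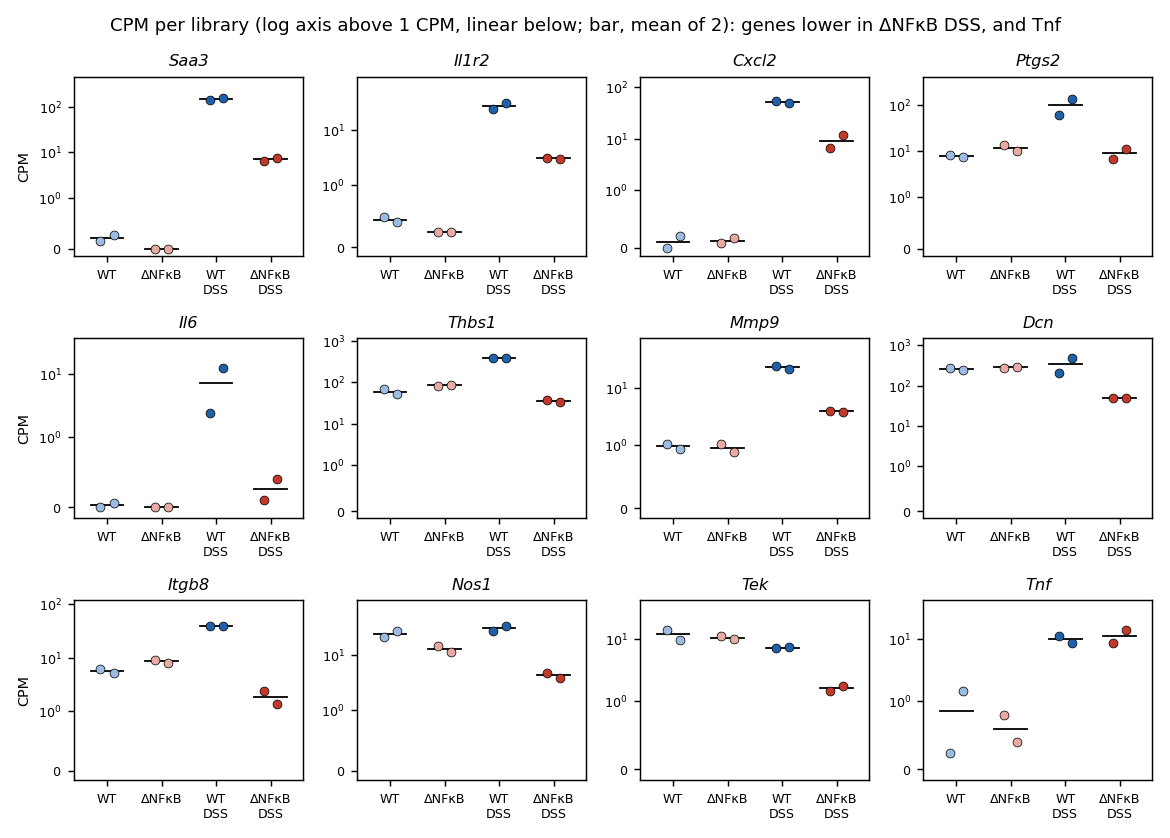
CPM of 12 genes in each of the 8 libraries (points; pale untreated, dark after DSS, blue WT, red ΔNFκB), with the mean of 2 as a bar; the y axis is logarithmic above 1 CPM and linear below. In 11 genes both ΔNFκB DSS points lie under both WT DSS points, as for Saa3 (141 and 150.4 against 6.45 and 7.42 CPM), while those of Tnf overlap.

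Promoter sequences of 3 of these genes and of Nox1 (described below), which was higher in ΔNFκB mice, are shown because a κB match in the window stood beside either direction of change. Each is a window of 250 bases before to 50 after the RefSeq start, from 5′ to 3′ on the gene's strand in GRCm38.p6. For Nox1 that start lies inside the coordinates given below for the counted gene, not at their end. Capitals mark matches on either strand to the κB consensus, the sequence that NF-κB dimers bind; where 2 matches overlap they form 1 run. Cxcl2 is at chr5:90903649-90903948, plus strand, Il6 at chr5:30012864-30013163, plus strand, Nfkbia at chr12:55492598-55492897, minus strand and Nox1 at chrX:134111805-134112104, minus strand.
Cxcl2: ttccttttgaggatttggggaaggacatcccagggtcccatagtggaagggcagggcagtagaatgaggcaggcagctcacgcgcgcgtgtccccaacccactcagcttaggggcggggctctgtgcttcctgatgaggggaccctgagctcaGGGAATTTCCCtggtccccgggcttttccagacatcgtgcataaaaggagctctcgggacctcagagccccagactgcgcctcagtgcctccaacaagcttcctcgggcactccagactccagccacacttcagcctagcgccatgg
Il6: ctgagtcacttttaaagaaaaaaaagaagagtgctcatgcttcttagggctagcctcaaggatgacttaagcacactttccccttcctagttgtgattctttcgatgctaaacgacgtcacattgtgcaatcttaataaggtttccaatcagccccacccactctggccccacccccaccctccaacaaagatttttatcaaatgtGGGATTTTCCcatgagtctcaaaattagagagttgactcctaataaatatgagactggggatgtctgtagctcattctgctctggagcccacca
Nfkbia: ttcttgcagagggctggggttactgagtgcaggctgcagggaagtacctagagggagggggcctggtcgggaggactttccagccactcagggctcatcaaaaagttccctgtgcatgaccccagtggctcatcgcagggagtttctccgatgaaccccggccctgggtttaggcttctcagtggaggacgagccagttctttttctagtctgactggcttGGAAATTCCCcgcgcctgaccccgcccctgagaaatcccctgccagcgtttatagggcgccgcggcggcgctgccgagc
Nox1: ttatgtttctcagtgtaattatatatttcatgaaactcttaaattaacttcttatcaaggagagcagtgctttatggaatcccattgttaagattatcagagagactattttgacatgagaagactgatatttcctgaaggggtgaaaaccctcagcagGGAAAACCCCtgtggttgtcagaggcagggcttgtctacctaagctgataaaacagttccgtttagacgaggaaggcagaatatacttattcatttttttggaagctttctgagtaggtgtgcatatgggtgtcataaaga
Cxcl2 and Il6 were lower in ΔNFκB mice, Nfkbia did not pass the threshold, and Nox1 was higher. In the NF-κB response list 4 of the 12 genes called lower that had a window held a match (Il6, Cxcl2, Cxcl3 and Sod2), and so did 7 of the 9 not called. Over all 32851 windows the share with a match was 4.51%, and over genes tested it was 6.35%. It was 8.56% among 1426 genes called lower, 5.34% among 1068 called higher and 6.13% among 9124 not called. A match is a description of letters, not a bound site, and its absence says only that these letters are not in the window.

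Neutrophil transcripts were lower in ΔNFκB mice. Of 19 markers tested, 16 were lower and 3 did not pass (median -2.43). In fits that left out 1 library the number lower was 9 and 9 without WT DSS replicates 1 and 2 and 8 and 5 without ΔNFκB DSS replicates 1 and 2. Il1r2 (ENSMUSG00000026073, chromosome 1, 40074079 to 40125231), a decoy receptor that binds interleukin 1, stood at 23.6 and 30.4 CPM in WT and 3.18 and 2.99 CPM in ΔNFκB mice (log2 fold change -3.13 ± 0.22, adjusted p 0.000796). Mmp9, the gelatinase of neutrophil granules, stood at 24.5 and 21.4 CPM in WT and 4 and 3.81 CPM in ΔNFκB mice (log2 fold change -2.55 ± 0.20, adjusted p 0.00108). Clec4d, a lectin receptor for mycobacterial glycolipid, stood at 10.8 and 9.34 CPM in WT and 1.23 and 1.85 CPM in ΔNFκB mice (log2 fold change -2.70 ± 0.32, adjusted p 0.00283). In each gene both ΔNFκB mice were under both WT mice, and the 2 mice of a genotype were close. Retnlg, a resistin-like protein, fell from 43.3 and 33 CPM to 5.02 and 7.32 CPM (log2 fold change -2.63 ± 0.31, adjusted p 0.00338). Ltf, lactoferrin, did not follow: it stood at 22.6 and 25 CPM in WT and 18.4 and 25.6 CPM in ΔNFκB mice (log2 fold change -0.11 ± 0.59, adjusted p 0.91), and was chosen after its values were seen. The list summed to 719.7 and 922 CPM in WT and 245 and 204 CPM in ΔNFκB mice, of which Ly6g, a gene with close paralogs, held 201 and 246 CPM and 122 and 70.9 CPM and did not pass (adjusted p 0.0836). Camp, Cxcr1, Elane and Mpo had too few counts to be tested. Il1r2, Mmp9, Clec4d and Retnlg passed the threshold in each fit that left out 1 DSS library.

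Of 24 monocyte and macrophage markers, 9 were lower and 15 did not pass (median -0.76). In fits without 1 library the number lower was 7 and 2 without WT DSS replicates 1 and 2 and 4 and 1 without ΔNFκB DSS replicates 1 and 2. Arg1, arginase, stood at 14.4 and 11.9 CPM in WT and 0.615 and 0.618 CPM in ΔNFκB mice (log2 fold change -4.39 ± 0.49, adjusted p 0.0026). Chil3, a chitinase-like protein of activated macrophages, stood at 53.7 and 68.6 CPM in WT and 7.58 and 8.55 CPM in ΔNFκB mice (log2 fold change -2.92 ± 0.49, adjusted p 0.007). Fcgr3, an Fc receptor, stood at 20.6 and 24.3 CPM in WT and 11.2 and 10.5 CPM in ΔNFκB mice (log2 fold change -1.05 ± 0.18, adjusted p 0.00779). Both ΔNFκB mice were under both WT mice in all 3. Cd163, a scavenger receptor of resident macrophages, was also lower, at 5.31 and 20.3 CPM in WT and 1.95 and 2.06 CPM in ΔNFκB mice (log2 fold change -2.67 ± 0.62, adjusted p 0.0215). Of other macrophage genes, Csf1r, the receptor for the macrophage growth factor, stood at 44.8 and 47.4 CPM in WT and 38.2 and 33.4 CPM in ΔNFκB mice (adjusted p 0.191) and Adgre1, which encodes F4/80, at 9.85 and 9.8 CPM in WT and 9.12 and 8.66 CPM in ΔNFκB mice (adjusted p 0.767), and neither passed. Cd163, Csf1r and Adgre1 were chosen after their values were seen. Arg1 passed the threshold in each fit that left out 1 DSS library. Chil3 missed the threshold without WT DSS replicate 2 (adjusted p 0.0581) or ΔNFκB DSS replicate 2 (0.069) and with DESeq2 (0.142). Fcgr3 missed the threshold without WT DSS replicate 2 (adjusted p 0.0648) or ΔNFκB DSS replicate 2 (0.0722). Cd163 missed the threshold without WT DSS replicate 2 (adjusted p 0.0896), ΔNFκB DSS replicate 1 (0.1) or ΔNFκB DSS replicate 2 (0.139). Among 18 complement genes 7 were lower and 11 did not pass (median -0.93; -0.54 without WT DSS replicate 2). With 1 library left out the number lower was 8 and 3 without WT DSS replicates 1 and 2 and 4 and 3 without ΔNFκB DSS replicates 1 and 2. Cfp, properdin, fell with -1.75 ± 0.24, adjusted p 0.00369, and C5ar1, the receptor for the C5a fragment, with -1.96 ± 0.30, adjusted p 0.00541. Cfp passed the threshold in each fit that left out 1 DSS library. C5ar1 missed the threshold without ΔNFκB DSS replicate 2 (adjusted p 0.0578).

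Lymphocyte markers mostly did not pass. None of 20 T and NK cell markers passed in edgeR, DESeq2 or limma-voom, and 1 had an unadjusted p under 0.05 in edgeR (median -0.59; -0.36 without ΔNFκB DSS replicate 2). They summed to 61.6 and 68.7 CPM in WT and 51.1 and 41.4 CPM in ΔNFκB mice. Of 15 B and plasma cell markers, 1 was higher (Xbp1), 1 lower (Sdc1) and 13 did not pass (median -1.45; from -5.71 without ΔNFκB DSS replicate 1 to -0.50 without ΔNFκB DSS replicate 2). Xbp1 (0.51 ± 0.14, adjusted p 0.0329) and Sdc1 (-0.47 ± 0.12, adjusted p 0.0294) are also expressed by epithelium. Immunoglobulin transcripts took 0.00296% of counts in ΔNFκB DSS replicate 2, against 0.0370% in ΔNFκB DSS replicate 1 and 0.0395% and 0.0559% in WT mice. Xbp1 missed the threshold without WT DSS replicate 1 (adjusted p 0.101), WT DSS replicate 2 (0.175), ΔNFκB untreated replicate 1 (0.0623), ΔNFκB untreated replicate 2 (0.0621), ΔNFκB DSS replicate 1 (0.1) or ΔNFκB DSS replicate 2 (0.188). Sdc1 missed the threshold without WT DSS replicate 1 (adjusted p 0.0689), WT DSS replicate 2 (0.187), ΔNFκB DSS replicate 1 (0.0704) or ΔNFκB DSS replicate 2 (0.191).

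In the mast cell list 6 of 12 genes had enough counts, and 2 were lower (Hdc and Kit), 1 higher (Cma1) and 3 did not pass. The number lower was 1 and 1 without WT DSS replicates 1 and 2 and 0 and 0 without ΔNFκB DSS replicates 1 and 2. Cma1, a chymase, stood at 0.29 and 0.366 CPM in WT and 3.79 and 3.92 CPM in ΔNFκB mice (log2 fold change 3.51 ± 0.40, adjusted p 0.00267). Both ΔNFκB values were above both WT values, and untreated values were 3.59 and 3.89 CPM in WT and 2.37 and 1.55 CPM in ΔNFκB mice. The WT values after DSS were near the level of 3 counts, 0.289 and 0.274 CPM in WT DSS replicates 1 and 2. Hdc, which makes histamine, fell from 50.7 and 16.3 CPM to 4.2 and 4.95 CPM (log2 fold change -2.87 ± 0.55, adjusted p 0.0115). The defining mast cell genes Cpa3, Fcer1a, Mcpt4, Ms4a2, Tpsab1 and Tpsb2 had at most 2 counts in any DSS library. Cma1 passed the threshold in each fit that left out 1 DSS library. Hdc missed the threshold without WT DSS replicate 1 (adjusted p 0.0712), ΔNFκB DSS replicate 1 (0.0692) or ΔNFκB DSS replicate 2 (0.0896). Kit missed the threshold without WT DSS replicate 2 (adjusted p 0.15), ΔNFκB DSS replicate 1 (0.0833) or ΔNFκB DSS replicate 2 (0.147).

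Antimicrobial and acute-phase genes went in both directions: of 19 tested, 6 were lower, 5 higher (Nox1, Mptx1, Ido1, Retnlb and Pigr) and 8 did not pass (median 0.27; 0.088 without ΔNFκB DSS replicate 1). With 1 library left out, the number lower was 5 and 3 without WT DSS replicates 1 and 2 and 3 and 2 without ΔNFκB DSS replicates 1 and 2, and the number higher was 3 and 4 without WT DSS replicates 1 and 2 and 3 and 2 without ΔNFκB DSS replicates 1 and 2. Saa3 (ENSMUSG00000040026, chromosome 7, 46711998 to 46715700), an acute-phase serum amyloid, stood at 141 and 150.4 CPM in WT and 6.45 and 7.42 CPM in ΔNFκB mice (log2 fold change -4.39 ± 0.15, adjusted p 8.9e-05). Chil1, a chitinase-like protein, stood at 14.6 and 13.3 CPM in WT and 1.23 and 0.515 CPM in ΔNFκB mice (log2 fold change -3.98 ± 0.42, adjusted p 0.0022). Both genes were lower in both ΔNFκB mice. Nox1 (ENSMUSG00000031257, chromosome X, 134086421 to 134221956), the NADPH oxidase of colon epithelium, stood at 25.9 and 21.3 CPM in WT and 118 and 138 CPM in ΔNFκB mice (log2 fold change 2.44 ± 0.19, adjusted p 0.00108). Mptx1, a mucosal pentraxin of the colon, stood at 0.579 and 0.275 CPM in WT and 18 and 7.63 CPM in ΔNFκB mice (log2 fold change 4.89 ± 0.54, adjusted p 0.0026). In these 2 the ΔNFκB mice were the higher ones; Mptx1 remained far under its untreated values of 734 and 697 CPM in WT and 434 and 399 CPM in ΔNFκB mice, and Nox1 was above its untreated 77.4 and 69.3 CPM in WT and 25.6 and 36.5 CPM in ΔNFκB mice. Saa3, Chil1, Nox1 and Mptx1 passed the threshold in each fit that left out 1 DSS library.

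Many interferon-induced genes were higher in ΔNFκB mice. Interferons act through promoter elements named GAS and ISRE, and the induced genes serve antiviral defence and the loading of peptides on MHC class I. Of 38 genes tested, 17 were higher, 1, Gbp5, was lower, and 20 did not pass (median 0.96; 0.49 without ΔNFκB DSS replicate 2). Over the fits with 1 library left out, the number higher was 6 and 6 without WT DSS replicates 1 and 2 and 18 and 1 without ΔNFκB DSS replicates 1 and 2. Psmb9, a subunit of the immunoproteasome that cuts peptides for MHC class I, stood at 19.6 and 23.2 CPM in WT and 43.4 and 59 CPM in ΔNFκB mice (log2 fold change 1.26 ± 0.21, adjusted p 0.00668). Psmb10, another such subunit, stood at 62.4 and 54.1 CPM in WT and 105 and 124 CPM in ΔNFκB mice (log2 fold change 0.98 ± 0.17, adjusted p 0.00753). Tapbp, which holds MHC class I at the peptide transporter, stood at 160 and 156 CPM in WT and 251 and 286 CPM in ΔNFκB mice (log2 fold change 0.76 ± 0.12, adjusted p 0.00628). Each was higher in both ΔNFκB mice. Oasl2, an antiviral gene, stood at 43.4 and 42.1 CPM in WT and 105 and 200.2 CPM in ΔNFκB mice (log2 fold change 1.84 ± 0.30, adjusted p 0.00681). B2m, the light chain of MHC class I, was named after its values were seen and stood at 226 and 352 CPM in WT and 563 and 775 CPM in ΔNFκB mice (log2 fold change 1.21 ± 0.26, adjusted p 0.0181). ΔNFκB DSS replicate 2 was above replicate 1 for each of these genes, and the list summed to 1718 and 2262 CPM in WT and 3074 and 4830 CPM in ΔNFκB mice. Psmb9 missed the threshold without ΔNFκB DSS replicate 2 (adjusted p 0.0714). Psmb10 missed the threshold without WT DSS replicate 2 (adjusted p 0.0655) or ΔNFκB DSS replicate 2 (0.0776). Tapbp missed the threshold without WT DSS replicate 2 (adjusted p 0.0549) or ΔNFκB DSS replicate 2 (0.0706). Oasl2 missed the threshold without WT DSS replicate 2 (adjusted p 0.0561). B2m missed the threshold without WT DSS replicate 1 (adjusted p 0.0874) or ΔNFκB DSS replicate 2 (0.151). Exon bases of Tapbp overlap another gene over 29.0% of their length, so its count is uncertain. Of 11 MHC class II genes 2 were higher (H2-DMb1 and H2-DMa) and 9 did not pass (median 0.42; 0.71 and 0.13 without WT DSS replicates 1 and 2); the number higher was 1 and 0 without WT DSS replicates 1 and 2 and 1 and 0 without ΔNFκB DSS replicates 1 and 2. H2-DMb1, which edits the peptides on MHC class II, stood at 13.9 and 12 CPM in WT and 25.8 and 30.2 CPM in ΔNFκB mice (log2 fold change 1.11 ± 0.22, adjusted p 0.0129). H2-DMb1 missed the threshold without WT DSS replicate 2 (adjusted p 0.0962) or ΔNFκB DSS replicate 2 (0.112). H2-DMa missed the threshold without WT DSS replicate 1 (adjusted p 0.0813), WT DSS replicate 2 (0.217), ΔNFκB DSS replicate 1 (0.139) or ΔNFκB DSS replicate 2 (0.159) and with upper quartile factors (0.0576).

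Windows of Oas1a, an antiviral RNA sensor, and of Psmb8, an immunoproteasome subunit, are shown because both genes rose and hold matches to such elements. As for κB, a match is a description of letters, not a bound site. Oas1a stood at 28.7 and 25.1 CPM in WT and 57 and 66.4 CPM in ΔNFκB mice (adjusted p 0.0134) and Psmb8 at 33.8 and 45.3 CPM in WT and 83.3 and 102 CPM in ΔNFκB mice (adjusted p 0.00799), with groups apart in both; they lie outside the naming rule and were chosen with their values known. Capitals mark the GAS letters TTCNNNGAA, which read the same on the other strand, and the ISRE letters GAAANNGAAA, searched on both strands; overlapping matches form 1 run. Oas1a is at chr5:120907476-120907775, minus strand and Psmb8 at chr17:34197945-34198244, plus strand, both RefSeq windows in GRCm38.p6.
Oas1a: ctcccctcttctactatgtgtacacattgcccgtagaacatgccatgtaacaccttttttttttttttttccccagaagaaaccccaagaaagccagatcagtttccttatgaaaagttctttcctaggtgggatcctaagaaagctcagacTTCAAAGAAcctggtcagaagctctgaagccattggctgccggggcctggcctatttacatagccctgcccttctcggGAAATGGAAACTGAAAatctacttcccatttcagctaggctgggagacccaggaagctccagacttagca
Psmb8: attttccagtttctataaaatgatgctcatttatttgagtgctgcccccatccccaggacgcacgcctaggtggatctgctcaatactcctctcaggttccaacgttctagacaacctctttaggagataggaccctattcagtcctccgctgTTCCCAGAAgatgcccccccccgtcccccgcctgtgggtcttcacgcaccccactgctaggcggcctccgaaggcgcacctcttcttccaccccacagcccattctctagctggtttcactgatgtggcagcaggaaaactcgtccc
Oas1a holds 1 GAS and a pair of overlapping ISRE matches, and Psmb8 1 GAS. Among the interferon response genes called higher, 8 of 15 windows held an ISRE match and 5 of 15 a GAS match; among those not called, 8 of 13 and 5 of 13 did. Over all windows the shares were 3.44% for ISRE and 8.30% for GAS. Among genes called higher they were 6.09% and 7.77%, among those called lower 4.21% and 9.33%, and among those not called 3.61% and 8.20%. Oas1a missed the threshold without WT DSS replicate 2 (adjusted p 0.0982) or ΔNFκB DSS replicate 2 (0.109). Psmb8 missed the threshold without ΔNFκB DSS replicate 2 (adjusted p 0.0875).

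Goblet cell genes were higher in ΔNFκB mice. Goblet cells make the mucus that keeps bacteria off the colon epithelium. Of 21 genes tested, 20 were higher and 1 did not pass (median 1.28). In fits that left out 1 library the number higher was 12 and 13 without WT DSS replicates 1 and 2 and 11 and 11 without ΔNFκB DSS replicates 1 and 2. Klk1 (ENSMUSG00000063903, chromosome 7, 44225360 to 44229618), a kallikrein protease, stood at 18.6 and 17.5 CPM in WT and 77.5 and 61 CPM in ΔNFκB mice (log2 fold change 1.94 ± 0.18, adjusted p 0.00154). Tspan13, a tetraspanin, stood at 27.7 and 25.1 CPM in WT and 70.2 and 60.6 CPM in ΔNFκB mice (log2 fold change 1.31 ± 0.13, adjusted p 0.0019). Agr2, a disulfide isomerase that mucin folding needs, stood at 226 and 259 CPM in WT and 638 and 613 CPM in ΔNFκB mice (log2 fold change 1.37 ± 0.16, adjusted p 0.00267). Each was higher in both ΔNFκB mice, and the 2 mice of a genotype were close. Gcnt3, which builds the branched core of mucin glycans, stood at 29.8 and 36.4 CPM in WT and 101 and 85.8 CPM in ΔNFκB mice (log2 fold change 1.49 ± 0.16, adjusted p 0.0025). Muc2, the main gel-forming mucin, stood at 1400 and 2154 CPM in WT and 5594 and 4356 CPM in ΔNFκB mice (log2 fold change 1.49 ± 0.28, adjusted p 0.0104), and Clca1, a secreted mucus protein, at 119.9 and 94.7 CPM in WT and 455 and 433 CPM in ΔNFκB mice (log2 fold change 2.05 ± 0.25, adjusted p 0.00318). Muc2 and Clca1 were named after their values were seen. In Klk1 and Clca1 the ΔNFκB mice were still far under their untreated values of 849 and 712 CPM and 2563 and 3223 CPM, while Muc2 at 5594 and 4356 CPM lay beside its untreated 4871 and 5265 CPM. Klk1, Tspan13, Agr2, Gcnt3 and Clca1 passed the threshold in each fit that left out 1 DSS library. Muc2 missed the threshold without WT DSS replicate 1 (adjusted p 0.056), ΔNFκB DSS replicate 1 (0.0517) or ΔNFκB DSS replicate 2 (0.0547). The list summed to 3582 and 4417 CPM in WT and 11900 and 9854 CPM in ΔNFκB mice.

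**Figure D4:**
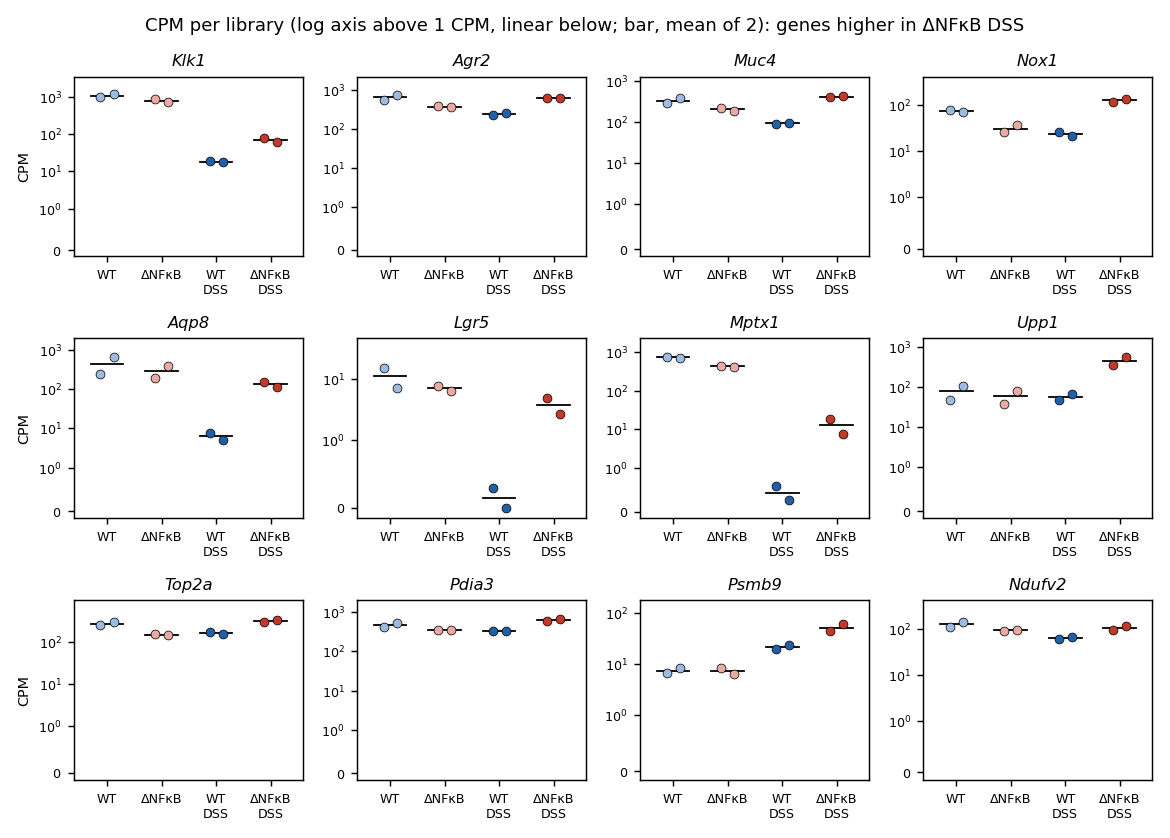
CPM of 12 genes in each of the 8 libraries (points; pale untreated, dark after DSS, blue WT, red ΔNFκB), with the mean of 2 as a bar; the y axis is logarithmic above 1 CPM and linear below. Both ΔNFκB DSS points lie above both WT DSS points in all 12. Examples are Ndufv2 (63.1 and 69 CPM in WT against 99 and 119.7 CPM) and Aqp8 (7.63 and 5.04 CPM in WT against 153 and 114 CPM).

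Genes of absorptive colonocytes, which take up water, salt and short-chain fatty acids, were mixed. Of 31 tested, 8 were higher, 2 lower (Car1 and Guca2a) and 21 did not pass (median 0.51). In fits without 1 library the number higher was 5 and 2 without WT DSS replicates 1 and 2 and 5 and 1 without ΔNFκB DSS replicates 1 and 2. Aqp8, a water channel of surface colonocytes, stood at 7.63 and 5.04 CPM in WT and 153 and 114 CPM in ΔNFκB mice (log2 fold change 4.40 ± 0.57, adjusted p 0.00332). Scnn1a, a subunit of the epithelial sodium channel, stood at 74.8 and 69.1 CPM in WT and 133 and 141 CPM in ΔNFκB mice (log2 fold change 0.93 ± 0.14, adjusted p 0.00516). Car1, a carbonic anhydrase, went the other way at 289 and 300.5 CPM in WT and 77.7 and 67.3 CPM in ΔNFκB mice (log2 fold change -2.02 ± 0.20, adjusted p 0.0019). The groups were apart in all 3. Of 25 fatty acid oxidation genes, 5 were higher (Acat1, Bdh1, Cpt2, Ppargc1b and Etfdh), 2 lower and 18 did not pass (median 0.19; 0.29 without WT DSS replicate 1 and 0.096 without ΔNFκB DSS replicate 2); the number higher was 1 and 0 without WT DSS replicates 1 and 2 and 1 and 0 without ΔNFκB DSS replicates 1 and 2. Aqp8 and Car1 passed the threshold in each fit that left out 1 DSS library. Scnn1a missed the threshold without ΔNFκB DSS replicate 2 (adjusted p 0.0551).

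At the crypt base, where epithelial stem cells divide, of 18 genes tested 6 were higher, 2 lower (Nkd1 and Prom1) and 10 did not pass (median 0.35). With 1 library left out the number higher was 5 and 1 without WT DSS replicates 1 and 2 and 2 and 3 without ΔNFκB DSS replicates 1 and 2. Lgr5, the R-spondin receptor that marks these stem cells, stood at 0.29 and 0 CPM in WT and 4.82 and 2.68 CPM in ΔNFκB mice. With 3 counts in WT and 73 in ΔNFκB mice it was 26.6-fold (95% counting interval 8.76 to 132) higher (adjusted p 0.00961), and its untreated values were 15.3 and 6.97 CPM in WT and 7.65 and 6.34 CPM in ΔNFκB mice. Kcne3, a potassium channel subunit of crypts, stood at 40.3 and 34.5 CPM in WT and 66.9 and 71.2 CPM in ΔNFκB mice (log2 fold change 0.89 ± 0.12, adjusted p 0.00411). Nkd1, an inhibitor that Wnt signalling induces, was lower at 6.47 and 8.06 CPM in WT and 3.28 and 2.99 CPM in ΔNFκB mice (log2 fold change -1.21 ± 0.22, adjusted p 0.00911). Prom1 was lower too (-1.40 ± 0.29, adjusted p 0.0141). The groups were apart in all 4 genes. Kcne3 passed the threshold in each fit that left out 1 DSS library. Lgr5 missed the threshold without WT DSS replicate 2 (adjusted p 0.0596) and with limma-voom (0.0624). Nkd1 missed the threshold without WT DSS replicate 2 (adjusted p 0.0681) or ΔNFκB DSS replicate 2 (0.0811). Prom1 missed the threshold without WT DSS replicate 2 (adjusted p 0.0927) or ΔNFκB DSS replicate 2 (0.117).

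Wound-associated epithelial genes passed about as often as all genes tested (20.0% in either direction): of 30, 5 were lower (Il33, Ereg, Ccn2, Msln and Itga2), 1 higher (Sprr1a) and 24 did not pass (median -0.15; from -0.30 without ΔNFκB DSS replicate 1 to -0.018 without ΔNFκB DSS replicate 2). The number lower was 3 and 2 without WT DSS replicates 1 and 2 and 2 and 1 without ΔNFκB DSS replicates 1 and 2. Il33, an alarmin of the interleukin 1 family, stood at 24.5 and 31.2 CPM in WT and 5.12 and 7.93 CPM in ΔNFκB mice (log2 fold change -2.09 ± 0.27, adjusted p 0.00332). Ereg, epiregulin, a ligand of the EGF receptor, stood at 45.3 and 161 CPM in WT and 13 and 17 CPM in ΔNFκB mice (log2 fold change -2.78 ± 0.52, adjusted p 0.0105). Msln, mesothelin, stood at 30.8 and 22.2 CPM in WT and 2.46 and 0.412 CPM in ΔNFκB mice (log2 fold change -4.19 ± 1.07, adjusted p 0.0292). All 3 were lower in both ΔNFκB mice, with WT DSS replicate 2 far above replicate 1 for Ereg. Which cells held these transcripts was not tested. Il33 passed the threshold in each fit that left out 1 DSS library. Ereg missed the threshold without ΔNFκB DSS replicate 1 (adjusted p 0.0685) or ΔNFκB DSS replicate 2 (0.0846). Msln missed the threshold without WT DSS replicate 1 (adjusted p 0.102), WT DSS replicate 2 (0.0975), ΔNFκB DSS replicate 1 (0.07) or ΔNFκB DSS replicate 2 (0.185). Among 24 junction and barrier genes 4 were higher (Dsc2, Cldn15, Cdh1 and Cldn7), 1 lower (Cldn1) and 19 did not pass (median 0.37); the number higher was 1 and 0 without WT DSS replicates 1 and 2 and 0 and 0 without ΔNFκB DSS replicates 1 and 2. Dsc2, a desmosome cadherin, stood at 204 and 165 CPM in WT and 283 and 312 CPM in ΔNFκB mice (log2 fold change 0.69 ± 0.15, adjusted p 0.017). Dsc2 missed the threshold without WT DSS replicate 2 (adjusted p 0.124), ΔNFκB DSS replicate 1 (0.05) or ΔNFκB DSS replicate 2 (0.13).

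Endoplasmic reticulum chaperones, which fold secreted proteins, were higher in ΔNFκB mice. Of 23 chaperone and unfolded protein response genes 15 were higher and 8 did not pass (median 0.76). Over the fits with 1 library left out, the number higher was 8 and 1 without WT DSS replicates 1 and 2 and 9 and 0 without ΔNFκB DSS replicates 1 and 2. Pdia3, a disulfide isomerase, stood at 328 and 326 CPM in WT and 580.2 and 677 CPM in ΔNFκB mice (log2 fold change 0.94 ± 0.14, adjusted p 0.00536). Hsp90b1, the chaperone Grp94, stood at 376 and 344 CPM in WT and 706 and 818 CPM in ΔNFκB mice (log2 fold change 1.08 ± 0.17, adjusted p 0.0062). Both were higher in both ΔNFκB mice. Ddit3, the stress factor Chop, did not pass and stood at 5.7 and 5.77 CPM in WT and 5.74 and 6.18 CPM in ΔNFκB mice (log2 fold change 0.06 ± 0.26, adjusted p 0.898); it was chosen after its values were seen. Pdia3 missed the threshold without ΔNFκB DSS replicate 2 (adjusted p 0.0591). Hsp90b1 missed the threshold without WT DSS replicate 2 (adjusted p 0.0581) or ΔNFκB DSS replicate 2 (0.0636).

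Cell cycle genes were higher too: of 30 tested, 18 were higher and 12 did not pass (median 0.56). In fits that left out 1 library the number higher was 8 and 3 without WT DSS replicates 1 and 2 and 9 and 1 without ΔNFκB DSS replicates 1 and 2. Top2a, the topoisomerase of dividing cells, stood at 171 and 157 CPM in WT and 300 and 325 CPM in ΔNFκB mice (log2 fold change 0.93 ± 0.12, adjusted p 0.0033). Mki67, the proliferation antigen Ki-67, stood at 374 and 350.5 CPM in WT and 560.4 and 604 CPM in ΔNFκB mice (log2 fold change 0.68 ± 0.12, adjusted p 0.00788). Bub1, a kinase of the mitotic checkpoint, stood at 16 and 14.1 CPM in WT and 28.1 and 31.6 CPM in ΔNFκB mice (log2 fold change 0.99 ± 0.14, adjusted p 0.00456). Both ΔNFκB mice were above both WT mice in each. Top2a passed the threshold in each fit that left out 1 DSS library. Mki67 missed the threshold without WT DSS replicate 2 (adjusted p 0.074) or ΔNFκB DSS replicate 2 (0.0817). Bub1 missed the threshold without ΔNFκB DSS replicate 2 (adjusted p 0.0508).

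Mitochondrial genes followed the same direction with small sizes. Of 27 nuclear genes of the respiratory chain 17 were higher and 10 did not pass (median 0.47), and of 13 genes of the mitochondrial genome 11 were higher and 2 did not pass (median 0.88). Cyc1, a subunit of complex III, stood at 115 and 105 CPM in WT and 159.9 and 173 CPM in ΔNFκB mice (log2 fold change 0.60 ± 0.11, adjusted p 0.00871). Ndufv2, a subunit of complex I, stood at 63.1 and 69 CPM in WT and 99 and 119.7 CPM in ΔNFκB mice (log2 fold change 0.73 ± 0.15, adjusted p 0.0135). The mitochondrial gene mt-Nd4l stood at 124 and 114 CPM in WT and 196 and 247 CPM in ΔNFκB mice (log2 fold change 0.89 ± 0.14, adjusted p 0.00624). All 3 were higher in both ΔNFκB mice, and ΔNFκB DSS replicate 2 was the highest of the 4 for each. In fits without 1 library the number of nuclear genes higher was 2 and 0 without WT DSS replicates 1 and 2 and 11 and 0 without ΔNFκB DSS replicates 1 and 2, and that of mitochondrial genes 1 and 0 without WT DSS replicates 1 and 2 and 11 and 0 without ΔNFκB DSS replicates 1 and 2. Cyc1 missed the threshold without WT DSS replicate 2 (adjusted p 0.0778) or ΔNFκB DSS replicate 2 (0.0906). Ndufv2 missed the threshold without WT DSS replicate 1 (adjusted p 0.0748), WT DSS replicate 2 (0.0671) or ΔNFκB DSS replicate 2 (0.134). mt-Nd4l missed the threshold without WT DSS replicate 2 (adjusted p 0.0587) or ΔNFκB DSS replicate 2 (0.0615). Of 18 glycolysis genes 6 were higher, 1 lower (Pfkm) and 11 did not pass (median 0.39; 0.22 without ΔNFκB DSS replicate 2); the number higher was 1 and 0 without WT DSS replicates 1 and 2 and 1 and 0 without ΔNFκB DSS replicates 1 and 2.

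Genes of the matrix and of the cells around the epithelium were lower in ΔNFκB mice. Of 31 fibroblast and matrix genes 28 were lower and 3 did not pass (median -1.82). With 1 library left out the number lower was 28 and 15 without WT DSS replicates 1 and 2 and 21 and 5 without ΔNFκB DSS replicates 1 and 2. Thbs1 (ENSMUSG00000040152, chromosome 2, 118111876 to 118127133), thrombospondin 1, a matrix glycoprotein that activates TGF-β, stood at 383 and 384 CPM in WT and 37.5 and 33.6 CPM in ΔNFκB mice (log2 fold change -3.43 ± 0.16, adjusted p 8.9e-05). Col18a1, a basement membrane collagen, stood at 129.7 and 230.4 CPM in WT and 28.4 and 18.6 CPM in ΔNFκB mice (log2 fold change -2.94 ± 0.32, adjusted p 0.00251). Col1a1, the fibrillar collagen of scar and submucosa, stood at 368 and 437 CPM in WT and 131 and 84.3 CPM in ΔNFκB mice (log2 fold change -1.90 ± 0.24, adjusted p 0.00318). Dcn, decorin, a proteoglycan that binds collagen fibrils, stood at 210.5 and 497 CPM in WT and 50.6 and 49 CPM in ΔNFκB mice (log2 fold change -2.83 ± 0.35, adjusted p 0.00305). In all 31 genes both ΔNFκB values were under both WT values, as in 32.6% of all genes tested. Dcn and Col18a1 differed between the WT mice, with WT DSS replicate 2 the higher. Thbs1, Col18a1, Col1a1 and Dcn passed the threshold in each fit that left out 1 DSS library. The list summed to 5069 and 7700 CPM in WT and 1800 and 1461 CPM in ΔNFκB mice, beside 5092 and 2699 CPM in untreated WT and 4116 and 4266 CPM in untreated ΔNFκB mice.

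Metalloproteinases and their inhibitors, which turn over the matrix, were lower as well: of 19 tested, 15 were lower and 4 did not pass (median -2.46). The number lower was 15 and 11 without WT DSS replicates 1 and 2 and 10 and 7 without ΔNFκB DSS replicates 1 and 2. Timp2, an inhibitor of metalloproteinases, stood at 58.7 and 68.9 CPM in WT and 18.6 and 17.3 CPM in ΔNFκB mice (log2 fold change -1.83 ± 0.15, adjusted p 0.00127). Adamts1, a protease that cleaves versican, stood at 42.2 and 132 CPM in WT and 5.22 and 4.95 CPM in ΔNFκB mice (log2 fold change -4.10 ± 0.50, adjusted p 0.00305). Mmp3, stromelysin, stood at 26.5 and 161 CPM in WT and 2.36 and 1.13 CPM in ΔNFκB mice (log2 fold change -5.74 ± 0.91, adjusted p 0.00603). Both ΔNFκB mice were lower throughout, and WT DSS replicate 2 was the highest of the 4 for Adamts1 and Mmp3. Timp2 and Adamts1 passed the threshold in each fit that left out 1 DSS library. Mmp3 missed the threshold without ΔNFκB DSS replicate 2 (adjusted p 0.0743) and with limma-voom (0.0624). Mmp9, counted above among neutrophil markers, is also in this list.

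Endothelial markers were lower in ΔNFκB mice. Of 19 tested 16 were lower and 3 did not pass (median -2.14). Over the fits with 1 library left out, the number lower was 15 and 8 without WT DSS replicates 1 and 2 and 11 and 3 without ΔNFκB DSS replicates 1 and 2. Vwf, the von Willebrand factor that endothelium stores, stood at 36.5 and 49.1 CPM in WT and 7.68 and 4.95 CPM in ΔNFκB mice (log2 fold change -2.76 ± 0.35, adjusted p 0.00318). Tek, the angiopoietin receptor Tie2, stood at 7.05 and 7.33 CPM in WT and 1.43 and 1.75 CPM in ΔNFκB mice (log2 fold change -2.17 ± 0.28, adjusted p 0.00332). Cdh5, the cadherin of endothelial junctions, stood at 17.1 and 27 CPM in WT and 2.56 and 2.99 CPM in ΔNFκB mice (log2 fold change -2.99 ± 0.41, adjusted p 0.0038). Both ΔNFκB mice were under both WT mice in each gene. Vwf, Tek and Cdh5 passed the threshold in each fit that left out 1 DSS library. The list summed to 259.7 and 375 CPM in WT and 85.5 and 60.2 CPM in ΔNFκB mice.

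Enteric neuron and glia genes were lower too, and of 22 tested, 17 were lower and 5 did not pass (median -2.40). In fits that left out 1 library the number lower was 16 and 12 without WT DSS replicates 1 and 2 and 14 and 9 without ΔNFκB DSS replicates 1 and 2. Nos1 (ENSMUSG00000029361, chromosome 5, 117781032 to 117958840), the nitric oxide synthase of inhibitory motor neurons, stood at 27.2 and 33.1 CPM in WT and 4.71 and 3.81 CPM in ΔNFκB mice (log2 fold change -2.82 ± 0.23, adjusted p 0.00115). Stmn2, a microtubule protein of growing axons, stood at 8.79 and 8.15 CPM in WT and 1.64 and 0.824 CPM in ΔNFκB mice (log2 fold change -2.77 ± 0.29, adjusted p 0.0022). Ret, the GDNF receptor that enteric neurons need, stood at 36.4 and 25.3 CPM in WT and 7.58 and 5.46 CPM in ΔNFκB mice (log2 fold change -2.24 ± 0.24, adjusted p 0.00257). Uchl1, a neuronal ubiquitin hydrolase, stood at 6.86 and 7.97 CPM in WT and 0.82 and 1.13 CPM in ΔNFκB mice (log2 fold change -2.91 ± 0.30, adjusted p 0.00218). All 4 were lower in both ΔNFκB mice, at levels also under the untreated ones, which for Stmn2 were 12.2 and 11.3 CPM in WT and 11 and 10.2 CPM in ΔNFκB mice. Nos1, Stmn2, Ret and Uchl1 passed the threshold in each fit that left out 1 DSS library. Exon bases of Uchl1 overlap another gene over 18.1% of their length. The list summed to 325 and 347 CPM in WT and 305 and 252 CPM in ΔNFκB mice, a smaller fall than the median. Of its members 2 lay above 0, by up to 1.04, and were not called. In both, the ΔNFκB mice were above the WT mice, as in 35.5% of all genes tested.

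Smooth muscle genes were partly lower. Of 18 tested 5 were lower (Flna, Cald1, Lmod1, Myocd and Tpm2) and 13 did not pass (median -0.51; -0.28 without WT DSS replicate 1); the number lower was 2 and 2 without WT DSS replicates 1 and 2 and 1 and 0 without ΔNFκB DSS replicates 1 and 2. Flna, filamin A, an actin crosslinker, stood at 940.3 and 942 CPM in WT and 444 and 374 CPM in ΔNFκB mice (log2 fold change -1.20 ± 0.20, adjusted p 0.0075). Myh11, the smooth muscle myosin, chosen after its values were seen, did not pass and stood at 470 and 362 CPM in WT and 307 and 317 CPM in ΔNFκB mice (log2 fold change -0.42 ± 0.24, adjusted p 0.247). Flna missed the threshold without ΔNFκB DSS replicate 2 (adjusted p 0.0755). The muscle list summed to 3288 and 2940 CPM in WT and 2062 and 1987 CPM in ΔNFκB mice.

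Genes listed for the rarer epithelial cells, some of them shared with neurons or leukocytes, were partly lower. Of 11 tuft cell genes 4 were lower (Dclk1, Alox5ap, Alox5 and Ptgs1) and 7 did not pass (median -0.58; -1.34 and -0.16 without ΔNFκB DSS replicates 1 and 2). Dclk1 stood at 28.7 and 33.1 CPM in WT and 9.02 and 5.98 CPM in ΔNFκB mice (log2 fold change -2.04 ± 0.25, adjusted p 0.00302), and Alox5ap, the 5-lipoxygenase activating protein, at 18.4 and 18.7 CPM in WT and 3.69 and 4.43 CPM in ΔNFκB mice (log2 fold change -2.19 ± 0.27, adjusted p 0.00318); both were lower in both ΔNFκB mice. The tuft cell factor Pou2f3 was at 0 counts in all 4 DSS libraries, and Trpm5 and Rgs13, more restricted to tuft cells, did not pass (adjusted p 0.485 and 0.963). Rgs13 had 2 counts in WT and 2 in ΔNFκB mice, too few to tell a change from none. Neurons also express Dclk1 and leukocytes Alox5ap. Of 14 enteroendocrine genes 4 were lower (Scg2, Scg3, Sst and Gcg) and 10 did not pass (median -0.23; 0.19 without WT DSS replicate 1 and -0.062 without ΔNFκB DSS replicate 2). Scg2 and Scg3, granins that neurons share, fell with -1.76 ± 0.25, adjusted p 0.00456 and -1.78 ± 0.28, adjusted p 0.00566. Chga, the chromogranin of enteroendocrine cells, stood at 25.1 and 19.7 CPM in WT and 18.3 and 18.3 CPM in ΔNFκB mice (log2 fold change -0.29 ± 0.15, adjusted p 0.218) and did not pass. Dclk1, Alox5ap and Scg3 passed the threshold in each fit that left out 1 DSS library. Scg2 missed the threshold without ΔNFκB DSS replicate 2 (adjusted p 0.0508). In fits without 1 library the number of tuft cell genes lower was 4 and 3 without WT DSS replicates 1 and 2 and 3 and 2 without ΔNFκB DSS replicates 1 and 2, and that of enteroendocrine genes 2 and 3 without WT DSS replicates 1 and 2 and 2 and 1 without ΔNFκB DSS replicates 1 and 2. Chga, Trpm5, Rgs13 and Pou2f3 were chosen after their values were seen.

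Tissue beside the colon mucosa was looked for with 4 further lists. Stratified squamous markers summed to 25.6 and 24.4 CPM in WT and 4.2 and 4.74 CPM in ΔNFκB mice, of which Dsg3, a desmosome cadherin of squamous epithelium, held 14.8 and 17.5 CPM and 0.307 and 0.721 CPM (log2 fold change -4.94 ± 0.66, adjusted p 0.00468). Of 8 tested, 1 was lower (Dsg3) and 7 did not pass, and the defining genes Krt5, Krt4, Ivl and Sprr3 had at most 2 counts in any DSS library. Skeletal muscle markers summed to 6.28 and 3.85 CPM in WT and 4.41 and 3.92 CPM in ΔNFκB mice, and none of 4 tested passed in edgeR, DESeq2 or limma-voom or had an unadjusted p under 0.05 in edgeR. Adipocyte markers summed to 47.4 and 56.5 CPM in WT and 19.7 and 19.3 CPM in ΔNFκB mice. Of 9 tested, 2 were lower (Plin4 and Fabp4) and 7 did not pass (median -3.53, or -1.57 with Adipoq and Retn, at 0 counts in ΔNFκB mice, set to 3 counts over the group). The defining gene Adipoq stood at 0.386 and 0.366 CPM in WT and 0 and 0 CPM in ΔNFκB mice. Red blood cell markers summed to 10.4 and 21.1 CPM in WT and 4.2 and 4.74 CPM in ΔNFκB mice. Of 4 tested, 3 were lower (Hba-a1, Hbb-bs and Hba-a2) and 1 did not pass, and with 1 library left out the number lower was 4 and 0 without WT DSS replicates 1 and 2 and 0 and 0 without ΔNFκB DSS replicates 1 and 2. The part of these tissues in the differences above was not tested. Dsg3 passed the threshold in each fit that left out 1 DSS library.

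Immediate early genes, which rise within minutes of a stimulus or of dissection, were partly lower: of 16 tested, 5 were lower (Nr4a1, Ier3, Dusp1, Klf2 and Fosl1) and 11 did not pass (median -0.06; from -0.33 without WT DSS replicate 2 to 0.16 without WT DSS replicate 1). Nr4a1, an orphan nuclear receptor, stood at 19.9 and 15.9 CPM in WT and 5.12 and 5.57 CPM in ΔNFκB mice (log2 fold change -1.74 ± 0.25, adjusted p 0.00472), and Fos, named after its values were seen, did not pass at 104 and 57.9 CPM in WT and 139 and 157 CPM in ΔNFκB mice (log2 fold change 0.87 ± 0.64, adjusted p 0.363). Cytosolic ribosomal protein genes lay near 0: of 22 tested 2 were lower (Rplp1 and Rps14) and 20 did not pass (median -0.10; from -0.17 without ΔNFκB DSS replicate 2 to -0.05 without ΔNFκB DSS replicate 1). Nr4a1 passed the threshold in each fit that left out 1 DSS library. With 1 library left out the number of immediate early genes lower was 2 and 2 without WT DSS replicates 1 and 2 and 2 and 2 without ΔNFκB DSS replicates 1 and 2, and no ribosomal protein gene was lower without any 1 of the 4 DSS libraries.

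Other genes with the lowest p or the largest changes belonged to no list. Muc4, a transmembrane mucin, stood at 88.5 and 92.8 CPM in WT and 399 and 414 CPM in ΔNFκB mice (log2 fold change 2.17 ± 0.17, adjusted p 0.00108). Gal3st2c, a sulfotransferase of glycans, stood at 1.93 and 2.2 CPM in WT and 10.1 and 9.69 CPM in ΔNFκB mice (log2 fold change 2.26 ± 0.15, adjusted p 0.000536). In both the mice of a genotype nearly coincided. Shisa2, which holds Wnt and FGF receptors in the endoplasmic reticulum, stood at 0.966 and 0.824 CPM in WT and 8.71 and 7.52 CPM in ΔNFκB mice (log2 fold change 3.17 ± 0.25, adjusted p 0.00108). Abo, the blood group glycosyltransferase, stood at 0.772 and 0.916 CPM in WT and 10.6 and 7.52 CPM in ΔNFκB mice (log2 fold change 3.40 ± 0.37, adjusted p 0.00257). Upp1, uridine phosphorylase, stood at 47.8 and 67.6 CPM in WT and 369.7 and 561 CPM in ΔNFκB mice (log2 fold change 3.01 ± 0.46, adjusted p 0.00541). The groups were apart in each, which the rule for naming the largest changes required and which held for 68.1% of all genes tested. Untreated levels of Shisa2 and Abo were above both groups (40.6 and 42 CPM and 11.5 and 17.9 CPM in WT). D10Wsu102e, Nxpe4 and Sval1 rose with 1.92 ± 0.13, 1.79 ± 0.14 and 2.05 ± 0.16 (adjusted p 0.000536, 0.00108 and 0.00108). Muc4, Gal3st2c, Shisa2, Abo, D10Wsu102e, Nxpe4 and Sval1 passed the threshold in each fit that left out 1 DSS library. Upp1 missed the threshold without ΔNFκB DSS replicate 2 (adjusted p 0.0508).

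Of the other genes among the largest rises, Atp12a was well above the floor and the rest were near it or uneven. Atp12a, the nongastric proton pump, stood at 201 and 143 CPM in WT and 1385 and 1239 CPM in ΔNFκB mice (log2 fold change 2.93 ± 0.61, adjusted p 0.0152). Alox15, a lipoxygenase, stood at 0.193 and 0.458 CPM in WT and 2.36 and 4.74 CPM in ΔNFκB mice (log2 fold change 3.39 ± 0.60, adjusted p 0.00865), and Apol10a at 2.51 and 5.95 CPM in WT and 29.6 and 44.8 CPM in ΔNFκB mice (log2 fold change 3.13 ± 0.67, adjusted p 0.0171). Otc, the urea cycle enzyme, was 10.9-fold (95% counting interval 1.56 to 475) higher, on 1 against 10 counts, and Smpx, a small muscle protein, 8.75-fold (95% counting interval 2.06 to 78.5) higher, on 2 against 16 counts (adjusted p 0.0423 and 0.00827). Atp12a missed the threshold without WT DSS replicate 1 (adjusted p 0.0616), WT DSS replicate 2 (0.113), ΔNFκB DSS replicate 1 (0.0536) or ΔNFκB DSS replicate 2 (0.078). Alox15 missed the threshold without WT DSS replicate 1 (adjusted p 0.0512) or ΔNFκB DSS replicate 2 (0.0748). Apol10a missed the threshold without WT DSS replicate 1 (adjusted p 0.0897), WT DSS replicate 2 (0.0616) or ΔNFκB DSS replicate 2 (0.127). Otc missed the threshold without WT untreated replicate 1 (adjusted p 0.0574), WT untreated replicate 2 (0.0568), WT DSS replicate 1 (0.153), WT DSS replicate 2 (0.0807), ΔNFκB untreated replicate 1 (0.0598), ΔNFκB untreated replicate 2 (0.0612) or ΔNFκB DSS replicate 2 (0.28) and with DESeq2 (0.127) and with limma-voom (0.0827). Smpx missed the threshold without WT DSS replicate 2 (adjusted p 0.064) or ΔNFκB DSS replicate 2 (0.058). All such intervals pool the counts of the 2 mice of a group and hold counting error alone, without the spread between mice. PCR copies of a molecule are counted more than once, which neither the intervals nor the 3-count floor take into account.

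Among the genes lower in ΔNFκB mice, Itgb8 (ENSMUSG00000025321, chromosome 12, 119158022 to 119238802), the integrin chain that frees active TGF-β, stood at 39.6 and 38.5 CPM in WT and 2.36 and 1.34 CPM in ΔNFκB mice (log2 fold change -4.39 ± 0.26, adjusted p 0.000415). Abcc9, the regulatory subunit of a potassium channel in vessel muscle, stood at 141 and 213 CPM in WT and 21.1 and 19.3 CPM in ΔNFκB mice (log2 fold change -3.13 ± 0.20, adjusted p 0.000536). Hmcn2, hemicentin 2 of the matrix, stood at 100.2 and 90.6 CPM in WT and 18.6 and 17.9 CPM in ΔNFκB mice (log2 fold change -2.38 ± 0.15, adjusted p 0.000536). Both ΔNFκB mice lay far under both WT mice in these 3, and under them by any margin in 32.6% of all genes tested. Il5ra, a chain of the interleukin 5 receptor, stood at 27.8 and 14.7 CPM in WT and 0.922 and 0.206 CPM in ΔNFκB mice (log2 fold change -5.20 ± 0.61, adjusted p 0.00269), and Kcne4, a potassium channel subunit, at 12.7 and 27.6 CPM in WT and 0.615 and 0.515 CPM in ΔNFκB mice (log2 fold change -5.13 ± 0.51, adjusted p 0.0019). Krt90, a keratin, stood at 20.9 and 36.3 CPM in WT and 0.41 and 0.824 CPM in ΔNFκB mice (log2 fold change -5.51 ± 0.53, adjusted p 0.00177). Dio2, the enzyme that activates thyroid hormone, stood at 20 and 148 CPM in WT and 0.41 and 0.206 CPM in ΔNFκB mice (log2 fold change -8.04 ± 1.16, adjusted p 0.00456). Pi15 stood at 10.4 and 64.7 CPM in WT and 0.512 and 1.13 CPM in ΔNFκB mice (log2 fold change -5.50 ± 0.91, adjusted p 0.00696) and Lmcd1 at 4.06 and 13.3 CPM in WT and 0.205 and 0.309 CPM in ΔNFκB mice (log2 fold change -5.02 ± 0.80, adjusted p 0.00603), again with WT DSS replicate 2 the highest of the 4. In Il5ra, Dio2 and Lmcd1 a ΔNFκB value lay under the level of 3 counts, 0.307 and 0.309 CPM in ΔNFκB DSS replicates 1 and 2. The sizes of these falls are therefore uncertain. Prg4, lubricin, was 44.5-fold (95% counting interval 14.9 to 218) lower on 146 against 3 counts (adjusted p 0.0152). Ngp, a granule protein of immature neutrophils, fell with -5.51 ± 1.28, adjusted p 0.0255. Itgb8, Abcc9, Hmcn2, Il5ra, Kcne4 and Krt90 passed the threshold in each fit that left out 1 DSS library. Dio2 missed the threshold without ΔNFκB DSS replicate 2 (adjusted p 0.0591) and with limma-voom (0.142). Pi15 missed the threshold without ΔNFκB DSS replicate 1 (adjusted p 0.0512) or ΔNFκB DSS replicate 2 (0.0674) and with limma-voom (0.0969). Lmcd1 missed the threshold without ΔNFκB DSS replicate 2 (adjusted p 0.0636). Prg4 missed the threshold without WT DSS replicate 2 (adjusted p 0.091), ΔNFκB DSS replicate 1 (0.0762) or ΔNFκB DSS replicate 2 (0.13) and with limma-voom (0.0543). Ngp missed the threshold without WT DSS replicate 1 (adjusted p 0.0707), WT DSS replicate 2 (0.113), ΔNFκB DSS replicate 1 (0.124) or ΔNFκB DSS replicate 2 (0.143) and with DESeq2 (0.133).

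In the fit over all 8 libraries, the difference between genotypes after DSS differed from that in untreated mice for 3102 genes (17.7%), with 8.63% above and 9.07% below 0. Of the 150 named genes called after DSS, 119 had such a difference. Most named genes were chosen for their change after DSS, which is part of the difference tested, so this count is a description and is not to be read against the 17.7%. In 6 of the 119 the untreated genotypes also differed past the threshold, among them Nox1, Top2a, Kif11, Mki67 and Nr4a1, each in the direction opposite to that after DSS. Nox1 stood at 77.4 and 69.3 CPM in untreated WT and 25.6 and 36.5 CPM in untreated ΔNFκB mice. The other 31 named genes included Saa3, Il6, Il1b and Cxcl2, whose untreated levels were at most 2.48 CPM in either genotype. The number of such genes was 1553 without WT untreated replicate 2, 933 without ΔNFκB untreated replicate 1, 1490 and 792 without WT DSS replicates 1 and 2, and 1555 and 489 without ΔNFκB DSS replicates 1 and 2. The untreated mice were 1 WT female, 1 WT male and 2 ΔNFκB males by Xist and Y-linked transcripts, so genotype and sex were not balanced there, and the part of sex was not tested.

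**Figure D5:**
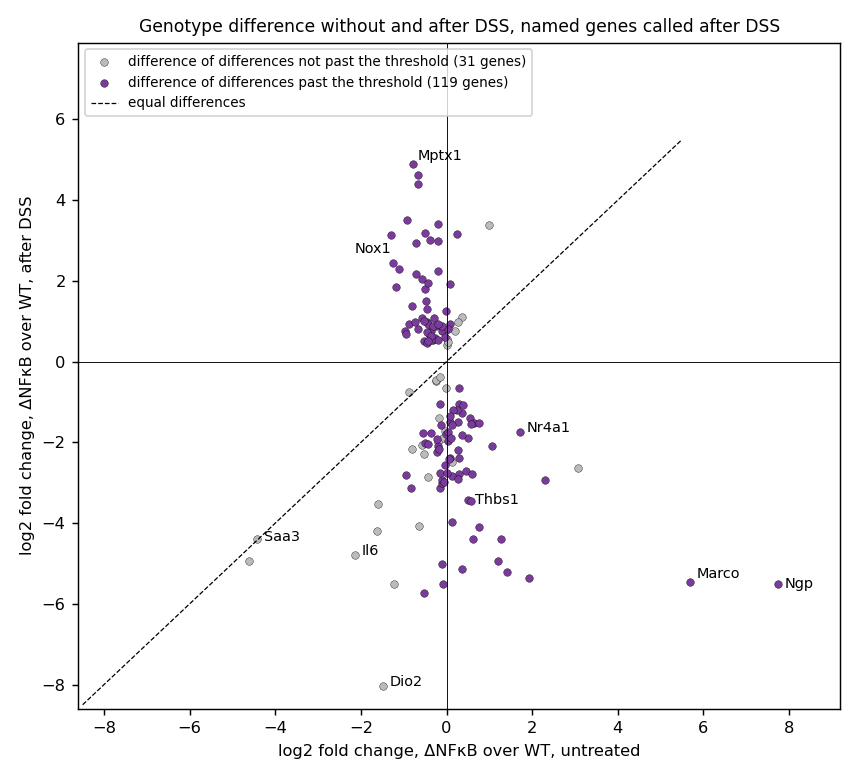
Log2 fold change of ΔNFκB over WT in untreated mice (x axis) against that after DSS (y axis) for the 150 named genes called after DSS; purple points are the 119 whose 2 differences differed past the threshold, grey points the 31 whose did not, and the dashed line marks equal differences. The points of Nox1, Top2a, Kif11, Mki67 and Nr4a1 lie on opposite sides of 0 on the 2 axes, and the untreated values of Ngp and Marco rest on 1 library, ΔNFκB untreated replicate 1.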

How the data were processed

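The authors deposited estimated counts per gene for 8 distal colon libraries (TruSeq Total RNA, paired reads on a HiSeqX), with values that are not all whole; the submitters' processing notes name HISAT2 2.1, SAMtools 1.8, featureCounts of Subread 1.6.2 and the mouse build mm10. The sources used here give neither the annotation release nor the strand setting of the counting, so genes that share exon bases are uncertain (12.1% of those of Nox1, 18.7% of Atp1b1, 15.7% of Hsp90b1). Of nonzero values 18.8% were not exactly whole, and all were rounded. Lines of the 115 repeated symbols were added up, giving 55418 symbols, and 30454 of these had a count. Coordinates are those of GENCODE M21 on mm10, in which all 55536 identifiers were found.

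In R 4.3.3, edgeR 4.0.16 was fitted to the 4 groups of 2 mice (filterByExpr, TMM factors 0.882 to 1.15, quasi-likelihood test, Benjamini-Hochberg threshold 0.05; 4 residual and 4.28 prior degrees of freedom; biological coefficient of variation 17.1%). Standard errors were taken as the size of the log2 fold change over the root of its F statistic. CPM uses the TMM-scaled library sizes. DSS libraries held 9229637 to 10522851 counts. Intervals are exact at 95%. The code was tested on simulated data. Alternatives were other scalings and filters, DESeq2 1.42.0, limma 3.58.1 (voom), the DSS libraries alone, the replicate number as a block, RNA classes left out, the Ensembl table and each library left out in turn. Genes named, 156 in all, are the 12 largest changes in each direction (mean log2 CPM over 1, groups apart, no predicted genes or receptor segments), the 8 smallest p in each direction, up to 4 smallest-p members called in each list, and Gm16685, Il7, Ppm1d, Mapk14, Rela, Tnf, Il6 and Il1b. Some of these genes are not reported here. The comparison and the gene lists were chosen with earlier results of these data known.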

Additional observations from a re-analysis of the deposited data

Results flagged for a closer look

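For 119 named genes the genotype difference after DSS differed from that in untreated mice, by a test of the difference itself (edgeR quasi-likelihood test over 17522 genes, Benjamini-Hochberg adjusted p under 0.05). The values below, for 116 of them, are the log2 difference after DSS minus that in untreated mice; of the 119, 53 were above 0 and 66 below 0, and 17.7% of all genes tested passed. Most of these genes were named for their change after DSS, which is part of the difference tested, so their number is a description. After DSS all 119 differed between the genotypes, and untreated in 6 of them, among them Nox1, Top2a, Kif11, Mki67 and Nr4a1. By Xist and Y-linked transcripts the untreated mice were 1 female and 3 males and the DSS mice all female, and the part of sex in these values was not tested.

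The genes above 0 included epithelial, interferon-induced and metabolic genes. Goblet cell genes stood at 2.17 for Agr2, 1.97 for Gcnt3, 2.36 for Klk1 and 1.76 for Tspan13, and Muc4 at 2.88. Colonocyte and crypt genes stood at 5.06 for Aqp8, 0.76 for Atp1b1, 0.84 for Scnn1a, 1.13 for Kcne3 and 5.29 for Lgr5. Barrier and defence genes stood at 1.12 for Cldn15, 1.11 for Dsc2, 5.67 for Mptx1 and 3.68 for Nox1. Interferon-induced genes stood at 3.02 for Oasl2, 1.43 for Psmb10 and 1.27 for Psmb9. Genes of protein folding stood at 1.67 for Hsp90b1, 1.37 for Pdia3, 1.53 for Pdia4, 1.48 for Pdia6 and 1.03 for Xbp1. Cell cycle genes stood at 1.73 for Bub1, 1.73 for Kif11, 1.64 for Mki67 and 1.81 for Top2a. Respiratory chain genes stood at 0.86 for Cox5a, 0.64 for Cyc1, 0.86 for Ndufb5 and 1.18 for Ndufv2 in the nucleus and 1.14 for mt-Co2, 1.37 for mt-Nd2, 1.21 for mt-Nd4l and 0.99 for mt-Nd5 in the mitochondrial genome. Genes of fatty acid and sugar metabolism stood at 0.93 for Acat1, 0.73 for Bdh1, 0.91 for Cpt2, 0.95 for Pgk1 and 0.99 for Tpi1. The other genes above 0 stood at 0.86 for Map2k3, 4.44 for Cma1, 3.6 for Abo, 4.43 for Apol10a, 3.64 for Atp12a, 1.84 for D10Wsu102e, 2.45 for Gal3st2c, 2.30 for Nxpe4, 3.69 for Otc, 2.92 for Shisa2, 3.18 for Smpx, 2.62 for Sval1 and 3.41 for Upp1.

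The genes below 0 included myeloid, stromal and nerve genes and some genes of the epithelial lists. Neutrophil genes stood at -3.15 for Clec4d, -2.29 for Il1r2, -2.52 for Mmp9 and -13.26 for Ngp. Macrophage and complement genes stood at -5.65 for Arg1, -5.21 for Chil3, -0.89 for Fcgr3, -11.14 for Marco, -2.0 for C5ar1, -1.33 for Cd55 and -1.79 for Cfp. Genes of NF-κB and p38 signalling stood at -1.79 for Irak3, -4.05 for Ptgs2, -1.96 for Tnfaip2, -0.96 for Relb, -2.38 for Dusp1, -2.17 for Mapk12 and -1.65 for Rps6ka5. Matrix genes and their proteases and inhibitors stood at -2.83 for Col18a1, -2.01 for Col1a1, -2.95 for Dcn, -3.94 for Thbs1, -4.87 for Adamts1, -5.22 for Mmp3, -2.48 for Plat and -2.18 for Timp2. Vessel and muscle genes stood at -2.94 for Cdh5, -2.0 for Tek, -2.47 for Tie1, -2.77 for Vwf, -1.60 for Cald1, -1.36 for Flna, -1.45 for Lmod1 and -1.41 for Myocd. Nerve and secretory genes stood at -1.88 for Nos1, -2.02 for Ret, -2.61 for Stmn2, -3.17 for Uchl1, -1.20 for Scg2 and -1.40 for Scg3. Genes of the tuft cell list stood at -2.88 for Alox5, -2.45 for Alox5ap, -1.62 for Dclk1 and -1.75 for Ptgs1. Neurons also express Dclk1 and leukocytes Alox5ap, and the more restricted Trpm5 and Rgs13 were not called after DSS. For Rgs13 this rests on 2 counts in WT and 2 in ΔNFκB mice, too few to tell a change from none. Genes of the epithelial, barrier and antimicrobial lists stood at -1.52 for Car1, -1.46 for Nkd1, -4.12 for Chil1 and -3.38 for Cldn1. Those of the wound-associated list stood at -3.14 for Ccn2, -3.07 for Ereg and -1.89 for Il33. Which cells held these transcripts was not tested. Immediate early genes stood at -2.11 for Ier3, -2.28 for Klf2 and -3.47 for Nr4a1. The other genes below 0 stood at -1.69 for Plin4, -2.97 for Abcc9, -2.68 for Hmcn2, -6.63 for Il5ra, -5.00 for Itgb8, -5.49 for Kcne4, -4.91 for Lmcd1, -5.42 for Pi15, -7.29 for Prg4 and -1.44 for Snora73b.

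In 7 of these genes a group held 3 counts or fewer over its mice, so the fitted value depends on the prior count added to each library: Arg1, Marco and Ngp in untreated WT mice (3, 1 and 0 counts), Lgr5, Otc and Smpx in WT mice after DSS (3, 1 and 2 counts), and Prg4 in ΔNFκB mice after DSS (3 counts). Marco and Ngp stood at 4.81 and 4.57 CPM in ΔNFκB untreated replicate 1 and at 0 CPM in replicate 2. Snora73b lies wholly within exon bases of another gene, so its count is uncertain.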

How the results depend on the processing

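The number of genes differing between the genotypes after DSS was 3499, and it stayed within 1.5 times under every alternative other than leaving out a library: 3441 with RLE factors, 3216 with upper quartile factors, 2840 with DESeq2, 2979 with limma-voom, 3861 with no count filter, 3453 with a CPM filter, 4030 from the 4 DSS libraries alone, 3341 without immunoglobulin, receptor, mitochondrial and ribosomal RNA genes, and 3499 from the Ensembl table. With 1 library left out it ran from 484 (without ΔNFκB DSS replicate 2) to 3781. The number of list genes called ran from 69 to 332 against 304 (69 without ΔNFκB DSS replicate 2), and that of genes whose genotype difference depended on DSS from 489 to 3669 against 3102. These fits have fewer samples. The 150 named genes called after DSS changed direction under no alternative. Of 1494 values under the other alternatives 34 missed the threshold, and of 1200 values with 1 library left out 245 did, 84 of them without ΔNFκB DSS replicate 2. Of the 6 named genes not called, 4 changed sign with 1 library left out, and the cause was not tested. Gm16685 ran from -0.66 to 0.40 (0.40 without WT DSS replicate 2, 0.07 without ΔNFκB DSS replicate 1), Il7 from -0.48 to 0.0061 (the latter without ΔNFκB DSS replicate 2), Rela from -0.093 to 0.04 (0.04 without WT DSS replicate 1) and Tnf from -0.26 to 0.53 (-0.26 without ΔNFκB DSS replicate 2). The median log2 fold change of all genes lay between -0.04 and 0.05 under all alternatives.

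The labels number the mice 1 and 2 in each group, and nothing says that a number marks a shared litter or day. Deviations of same-numbered libraries correlated at -0.131 to 0.226 between groups, and at 0.0413 between WT and ΔNFκB mice after DSS, so the numbers were not taken as pairs. With the replicate block 3508 genes differed after DSS and 3038 depended on DSS, and Hba-a2, Il1b, Marco, Otc and Rps14 missed the threshold. Depth limits the low genes: 3 counts in 1 library were 0.201 to 0.309 CPM.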

Other observations

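Some metabolic, muscle and hormone genes were not described above. Among glycolysis genes, Pgk1, phosphoglycerate kinase, stood at 341 and 379 CPM in WT and 473 and 558 CPM in ΔNFκB mice (log2 fold change 0.52 ± 0.14, adjusted p 0.0387). Tpi1, triose phosphate isomerase, stood at 292 and 272 CPM in WT and 396 and 473 CPM in ΔNFκB mice (log2 fold change 0.62 ± 0.16, adjusted p 0.0291). Pfkp, a phosphofructokinase, stood at 232 and 194 CPM in WT and 306 and 428 CPM in ΔNFκB mice (log2 fold change 0.78 ± 0.21, adjusted p 0.0355). Both ΔNFκB mice were above both WT mice in all 3. Pgk1 missed the threshold without WT DSS replicate 1 (adjusted p 0.175), WT DSS replicate 2 (0.124), ΔNFκB untreated replicate 1 (0.0671), ΔNFκB untreated replicate 2 (0.0669), ΔNFκB DSS replicate 1 (0.0626) or ΔNFκB DSS replicate 2 (0.278). Tpi1 missed the threshold without WT DSS replicate 1 (adjusted p 0.0919), WT DSS replicate 2 (0.166), ΔNFκB DSS replicate 1 (0.0532) or ΔNFκB DSS replicate 2 (0.216). Pfkp missed the threshold without WT DSS replicate 1 (adjusted p 0.0797), WT DSS replicate 2 (0.201) or ΔNFκB DSS replicate 2 (0.254).

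Among genes of fatty acid oxidation and ketone metabolism, Cpt2, which takes long acyl chains into the mitochondrial matrix, stood at 38.9 and 32.5 CPM in WT and 50 and 54.3 CPM in ΔNFκB mice (log2 fold change 0.55 ± 0.13, adjusted p 0.0254). Acat1, a mitochondrial thiolase, stood at 62.8 and 57.7 CPM in WT and 80.3 and 86 CPM in ΔNFκB mice (log2 fold change 0.47 ± 0.11, adjusted p 0.0216). Both were higher in both ΔNFκB mice. Cpt2 missed the threshold without WT DSS replicate 2 (adjusted p 0.164), ΔNFκB DSS replicate 1 (0.0681) or ΔNFκB DSS replicate 2 (0.177). Acat1 missed the threshold without WT DSS replicate 1 (adjusted p 0.0611), WT DSS replicate 2 (0.145), ΔNFκB DSS replicate 1 (0.0623) or ΔNFκB DSS replicate 2 (0.168).

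Of hormone genes, Sst, somatostatin, stood at 3.48 and 2.65 CPM in WT and 0.512 and 0.721 CPM in ΔNFκB mice (log2 fold change -2.29 ± 0.48, adjusted p 0.0151), and Gcg, the precursor of the glucagon-like peptides, at 26 and 16.8 CPM in WT and 13.5 and 11.8 CPM in ΔNFκB mice (log2 fold change -0.76 ± 0.21, adjusted p 0.0417). Cldn1, a claudin of tight junctions, stood at 1.83 and 5.31 CPM in WT and 0.615 and 0.412 CPM in ΔNFκB mice (log2 fold change -2.78 ± 0.69, adjusted p 0.0269). All 3 were lower in both ΔNFκB mice. Sst missed the threshold without WT DSS replicate 1 (adjusted p 0.0681), WT DSS replicate 2 (0.0552), ΔNFκB DSS replicate 1 (0.0862) or ΔNFκB DSS replicate 2 (0.0877). Gcg missed the threshold without WT DSS replicate 1 (adjusted p 0.22), ΔNFκB untreated replicate 2 (0.0508), ΔNFκB DSS replicate 1 (0.106) or ΔNFκB DSS replicate 2 (0.204) and with limma-voom (0.0613). Cldn1 missed the threshold without WT DSS replicate 2 (adjusted p 0.16), ΔNFκB DSS replicate 1 (0.0945) or ΔNFκB DSS replicate 2 (0.174) and with limma-voom (0.0884).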
